A study of Rattus norvegicus with 2 samples.

Results

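The ribbon synapse active zone genes described here are *Rims1*, *Rims2*, *Pclo*, *Bsn*, *Erc2*, *Ctbp2*, *Cplx3*, *Cplx4*, *Cabp4* and *Slc17a7*. They were taken by symbol from the gene table of the rat retina, and all 10 were found, each as 1 of its 32662 genes. Photoreceptors and bipolar cells release glutamate continuously from synapses that carry a ribbon, a plate of protein that holds vesicles close to the calcium channels of the active zone. The ribbon is built mainly of RIBEYE, while large scaffold proteins tie it to the membrane and to the calcium channels. Complexins regulate the fusion of the vesicles, and a vesicular transporter fills them with glutamate.

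The data are 2 libraries of ribosomal RNA-depleted total RNA from the retina of Long-Evans rats aged 2 months. CTRL is a control retina after a sham procedure, and IR12 is an ischemic retina taken 12 hours after reperfusion, when blood flow had been restored. There is 1 library in each condition, so no difference between them carries a replicate error and no test was made. The labels name a stranded total RNA kit for the samples and a stranded mRNA kit for the series, both with ribosomal RNA removal. Expression is given as FPKM, fragments relative to the length of the transcript and to the depth of the library, which allows levels of different genes to be compared per length. Changes are log2 ratios of (FPKM + 1), IR12 over CTRL, a scale that understates the change of genes with low FPKM.

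All 10 ribbon synapse genes had a lower FPKM in IR12 than in CTRL, but 8 of the 10 were higher in IR12 once both libraries were scaled to the same sum of FPKM (the TPM scale). As background, 13599 genes reached an FPKM of 1 in CTRL or IR12, and 48.2% of them were lower in IR12 as deposited. On the TPM scale 84.3% of these genes were not lower in IR12, so the 8 of 10 lie near the share of all genes. The median log2 ratio of the 10 genes was -0.34, beside 0.02 over these 13599 genes. The log2 ratios of the 10 genes ran from -0.79 for *Rims1* to -0.06 for *Erc2*. At least 1.5-fold lower in IR12 were 2 of the 10, *Rims1* and *Bsn*, beside 13.7% of all genes tested. This call was lost on the TPM scale and with a pseudocount of 5, each of which left 0 of the 10, beside 5.64% and 7.27% of all genes. The count was 1, beside 12.5% of all genes, with *Gapdh* made equal in both libraries. It was 3, beside 16.2%, with small non-coding RNAs left out of the sum. None of the 10 (0) was at least 1.5-fold higher, beside 14.8% of all genes, and 0 were at least 2-fold lower, beside 6.12%. Among the 9595 genes whose mean FPKM lay within the range of the 10 genes, the lower ones made up 44.7%, and those at least 1.5-fold lower 10.9%. The summed FPKM of the 10 genes was 1564 in CTRL and 1319 in IR12, a ratio of 0.844 that turned to 1.32 on the TPM scale. In bulk retina, a difference in the number of cells with ribbon synapses and one in the RNA of each cell, such as fewer cells or less RNA per cell, cannot be told apart.

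**Figure D1:**
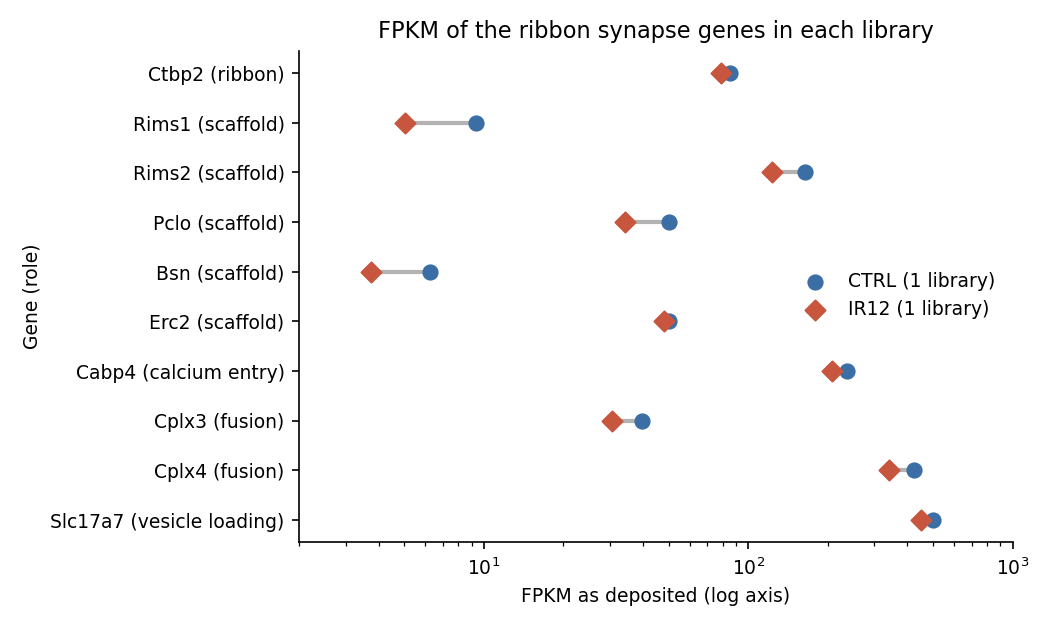
FPKM of the 10 ribbon synapse genes in CTRL (circles) and IR12 (diamonds), 1 library each, on a log axis and ordered by role. All 10 diamonds lie left of their circle as deposited, whereas 8 of the 10 genes were higher in IR12 on the TPM scale; the widest gap is that of *Rims1*, from 9.37 to 5.01.

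The 10 genes spanned a wide range of levels. The highest FPKM, that of *Slc17a7*, was 79.9 times that of *Bsn*, the lowest, in CTRL and 119.8 times in IR12. The order of the 10 genes by FPKM was the same in both libraries. *Slc17a7* and *Cplx4* together held 59.1% of the summed FPKM of the 10 genes in CTRL and 59.8% in IR12. In CTRL, where 12958 genes reached an FPKM of 1, *Slc17a7*, *Cplx4*, *Cabp4* and *Rims2* stood at percentiles 98.8, 98.6, 97.4 and 95.8. At the other end, *Rims1* stood at percentile 40.3 and *Bsn* at percentile 30.4. In IR12, with 12884 such genes, *Rims1* stood at percentile 25.4 and *Bsn* at 20.1, while *Slc17a7* stood at 98.7 and *Cplx4* at 98.3. *Pclo* went from percentile 82.9 to 73.1 and *Cplx3* from 77.9 to 70.0 between CTRL and IR12. *Ctbp2* and *Erc2*, in the middle of the range, went from percentile 90.9 to 89.5 and from 82.9 to 81.2. *Cabp4* and *Rims2* stood at percentiles 97.0 and 93.9 in IR12. Few genes lie at the top of the scale, so the percentile of an abundant gene can move little, and these percentiles give levels and do not measure the size of a change. Across the 10 genes, Spearman's rank correlation between the log2 ratio and the FPKM in CTRL was 0.61, whereas across the 13599 genes it was -0.11. Genes are not independent replicates, and these values describe the pair of libraries.

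Promoter sequence shows what some of these genes share besides their function. RefSeq windows on GRCr8, from 250 bases before to 50 bases after the start of the gene, matched 9 of the 10 genes by symbol, and *Rims2* did not match. The windows were searched on both strands for TAATCC, the core bound by the photoreceptor homeodomain factors CRX and OTX2, and for TAATTA, a core of other homeodomain factors, and TGCTGA, the core bound by the rod factor NRL. The photoreceptor core TAATCC was found in 3 of the 9 windows, those of *Ctbp2*, *Cabp4* and *Cplx4*, beside 7.17% of all 33469 windows. TAATTA was in 0 of the 9 and in 5.36% of all windows, and TGCTGA was in 0 of the 9 and in 18.4% of all. For comparison, TAATCC was in 2 of the 8 windows found for rod marker genes, *Gngt1* and *Pde6a* (the latter named after the match was seen), and in 0 of the 11 found for SNARE and fusion genes. The core TGCTGA was in 3 of the 8 rod windows and 2 of the 11 SNARE and fusion windows, and the core TAATTA in 1 of the 8 and 0 of the 11. The 250 bases before the start are shown 5′ to 3′ on the strand of the gene for the 3 genes with a match, with the match, read on either strand, in capitals. They lie on the minus strand at chr1:197241904-197242153 (*Ctbp2*), chr1:210862633-210862882 (*Cabp4*) and chr18:61767755-61768004 (*Cplx4*).
Ctbp2: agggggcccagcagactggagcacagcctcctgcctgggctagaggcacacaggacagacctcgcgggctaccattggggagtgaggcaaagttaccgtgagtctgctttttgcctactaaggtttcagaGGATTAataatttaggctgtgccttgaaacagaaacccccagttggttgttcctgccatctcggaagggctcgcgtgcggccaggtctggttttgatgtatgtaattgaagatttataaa
Cabp4: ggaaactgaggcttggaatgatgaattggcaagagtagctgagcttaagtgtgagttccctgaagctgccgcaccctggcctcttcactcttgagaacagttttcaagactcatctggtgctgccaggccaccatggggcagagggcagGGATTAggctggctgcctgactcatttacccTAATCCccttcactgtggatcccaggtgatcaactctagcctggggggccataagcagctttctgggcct
Cplx4: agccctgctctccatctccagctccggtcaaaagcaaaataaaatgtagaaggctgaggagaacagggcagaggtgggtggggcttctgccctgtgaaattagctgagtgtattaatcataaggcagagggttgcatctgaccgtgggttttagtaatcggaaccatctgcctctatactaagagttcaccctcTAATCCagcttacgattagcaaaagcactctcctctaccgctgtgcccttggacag
In *Cabp4* the letters occur once on each strand, beginning 101 and 70 bases before the start. They begin 56 bases before the start in *Cplx4* and 120 in *Ctbp2*. A match is a run of letters and does not show that a factor binds there. *Ctbp2* is read from different starts for different products, and which product the window shown precedes was not tested. The 3 genes with a match had log2 ratios of -0.11, -0.19 and -0.32 in the order *Ctbp2*, *Cabp4* and *Cplx4*.

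*Ctbp2* encodes RIBEYE, the main protein of the ribbon, and from another start the transcriptional corepressor CtBP2. The gene (ENSRNOG00000017326, chr1:205001396-205040755 on rn6) measured 85.3 FPKM in CTRL and 78.7 FPKM in IR12 (log2 ratio -0.11). Its FPKM sums both products, so the part of RIBEYE in this value was not tested. *Ctbp1*, its paralog with no ribbon form, measured 37.0 FPKM in CTRL and 42.5 FPKM in IR12. *Ctbp2* therefore held 69.7% of the summed FPKM of the pair in CTRL and 64.9% in IR12. Such a share within a library does not change when the whole library is rescaled.

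The scaffold genes differed most among themselves. *Rims1* and *Rims2* encode RIM proteins, which bind the vesicle protein Rab3 and priming factors and gather calcium channels at the active zone. *Rims2* (ENSRNOG00000004201, chr7:78092037-78594138) measured 164 FPKM in CTRL and 123 FPKM in IR12 (log2 ratio -0.42). *Rims1* (ENSRNOG00000011000, chr9:28442229-28973246) measured 9.37 FPKM in CTRL and 5.01 FPKM in IR12 (log2 ratio -0.79). This was the lowest log2 ratio of the 10 genes, and 8.69% of all genes tested lay below it. *Rims2* was 17.5 times as abundant per length as *Rims1* in CTRL and 24.5 times in IR12. The shorter family members *Rims3* and *Rims4* were scarce, at 3.56 and 1.25 FPKM in CTRL and 1.86 and 2.00 in IR12. *Rims2* held 92.0% of the summed FPKM of the 4 RIM genes in CTRL and 93.3% in IR12. The share of *Rims1* was 5.25% in CTRL and 3.81% in IR12.

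Piccolo and bassoon are a pair of very large scaffold proteins, and bassoon anchors the ribbon at the photoreceptor membrane. *Pclo* (ENSRNOG00000005726, chr4:16496895-16669368) measured 50.035 FPKM in CTRL and 34.3 FPKM in IR12 (log2 ratio -0.53). *Bsn* (ENSRNOG00000030714, chr8:116873721-116965396) measured 6.25 FPKM in CTRL and 3.75 FPKM in IR12 (log2 ratio -0.61). As deposited, *Bsn* was the second of the genes past 1.5-fold, and *Pclo*, next in order, stayed short of it. The locus listed for *Bsn* is also listed for AC128059.2, a gene without a descriptive symbol and singled out after its values were seen, which measured 22.9 FPKM in CTRL and 13.4 FPKM in IR12. How reads were divided between *Bsn* and AC128059.2 was not tested, so the level of *Bsn* is uncertain. *Bsn* was 40.0% lower in IR12, and the IR12 value of AC128059.2 was 0.586 times that in CTRL. The loci listed for the other 9 genes overlap no other listed gene. *Pclo* was 8.01 times as abundant per length as *Bsn* in CTRL and 9.15 times in IR12.

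*Erc2* encodes CAST, a scaffold protein that binds RIM proteins, piccolo and bassoon. It measured 50.045 FPKM in CTRL and 48.1 FPKM in IR12 (ENSRNOG00000015148, chr16:3293599-3679222). As deposited, its log2 ratio of -0.06 was the closest to 0 of the 10 genes. On the TPM scale it was 0.58, the furthest from 0, and *Bsn* at -0.08 was the closest. *Erc2* and *Pclo* stood nearly level in CTRL, and in IR12 *Erc2* was 1.40 times *Pclo*. Against *Rims1*, *Erc2* was 5.34 times as abundant per length in CTRL and 9.61 times in IR12. The paralog *Erc1*, expressed in many tissues, measured 17.4 FPKM in CTRL and 14.5 FPKM in IR12. *Erc2* held 74.2% of the pair in CTRL and 76.9% in IR12. *Rims1*, *Rims2* and *Erc2* have the longest listed loci, of 531018, 502102 and 385624 bases, and log2 ratios of -0.79, -0.42 and -0.06. Spearman's rank correlation between log2 ratio and locus length was -0.41 across the 10 genes and -0.18 across the 13599 genes.

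*Cabp4* encodes a calcium-binding protein that tunes the L-type calcium channel of the photoreceptor terminal. It measured 235 FPKM in CTRL and 207 FPKM in IR12 (ENSRNOG00000022044, chr1:219383452-219388009), with a log2 ratio of -0.19. *Cabp5*, a relative found in bipolar cells, measured 103.8 FPKM in CTRL and 64.7 FPKM in IR12 (log2 ratio -0.67). *Cabp4* thus held 69.4% of the pair in CTRL and 76.2% in IR12, the widest shift in share among the families compared, 6.78 percentage points. *Cacna1f*, the pore of the photoreceptor channel and named here after its values were seen, measured 94.1 FPKM in CTRL and 81.4 FPKM in IR12. The ratio of *Cabp4* to *Cacna1f* was 2.502 in CTRL and 2.54 in IR12. The ratio of *Rims2* to *Cacna1f* was 1.74 in CTRL and 1.51 in IR12.

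*Cplx3* and *Cplx4* encode the complexins of ribbon synapses, which bind the assembled fusion machinery and hold or release it. *Cplx4* (ENSRNOG00000016928, chr18:61656758-61672663) measured 424 FPKM in CTRL and 339.8 FPKM in IR12 (log2 ratio -0.32). *Cplx3* (ENSRNOG00000019317, chr8:62379502-62386264) measured 39.5 FPKM in CTRL and 30.5 FPKM in IR12 (log2 ratio -0.37). The pair kept nearly the same proportion, *Cplx4* being 10.7 times *Cplx3* in CTRL and 11.2 times in IR12. The complexins of conventional synapses, *Cplx1* and *Cplx2*, had 21.4 and 65.1 FPKM in CTRL and 14.9 and 33.9 in IR12. *Cplx2* had a log2 ratio of -0.92, lower than that of any of the 10 genes. *Cplx3* and *Cplx4* together held 84.3% of the summed FPKM of the 4 complexin genes in CTRL and 88.4% in IR12. The share of *Cplx4* alone was 77.1% in CTRL and 81.1% in IR12.

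*Slc17a7* encodes VGLUT1, the transporter that loads glutamate into the vesicles of photoreceptors and bipolar cells. It was the most abundant of the 10 genes, at 499 FPKM in CTRL and 449 FPKM in IR12 (ENSRNOG00000020650, chr1:101161252-101173174). Its log2 ratio was -0.15. *Slc17a6*, the transporter of ganglion cells, measured 39.0 FPKM in CTRL and 27.4 FPKM in IR12 (log2 ratio -0.49). *Slc17a8*, the transporter of a class of amacrine cells, measured 2.19 FPKM in CTRL and 0.551 FPKM in IR12 (log2 ratio -1.04). *Slc17a7* held 92.4% of the summed FPKM of the 3 transporters in CTRL and 94.1% in IR12. Within the group, *Slc17a7* was 5.86 times *Ctbp2* in CTRL and 5.71 times in IR12, whereas it was 1.18 times *Cplx4* in CTRL and 1.32 times in IR12.

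**Figure D2:**
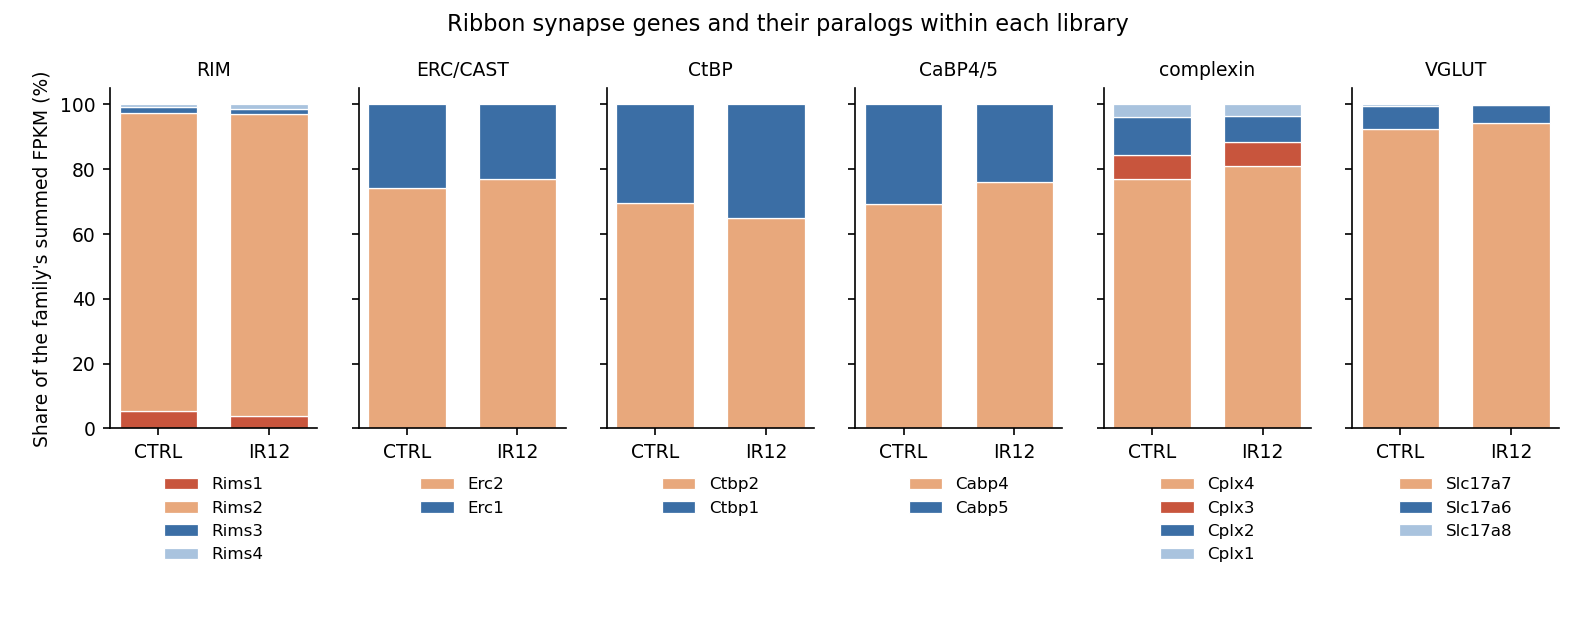
Share of the summed FPKM of a family held by each gene, in percent, in CTRL and IR12 (1 library each), for the RIM, ERC, CtBP, CaBP4 and CaBP5, complexin and VGLUT families. Red and orange parts are ribbon synapse genes and blue parts their paralogs; *Ctbp2* went from 69.7% to 64.9%, and *Cabp4* from 69.4% to 76.2%.

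The depth behind the lowest FPKM values of the group, those of *Bsn* and *Rims1*, was examined. The lowest FPKM values come in steps, and if the lowest repeated value is 1 read, a read at a locus of 939 bases was worth 0.0881 FPKM in CTRL and 0.0516 in IR12. The lowest repeated value in CTRL was 1.71 times that in IR12 at 17 of the 24 locus lengths compared, 939 bases among them. Over all 24 lengths this ratio ran from 0.427 to 8.54, so the lowest repeated value is not 1 read at every length. The ratio also carries any normalization between the libraries, which is not given, so it does not give the ratio of their depths. At 939 bases, the values up to 20 steps (6 in CTRL and 17 in IR12) were whole multiples of the step within 0.01. A transcript of that length with the FPKM of *Bsn* would rest on 71 reads in CTRL and 73 in IR12, and one with the FPKM of *Rims1* on 106 and 97. Both genes have longer transcripts and so more reads for the same FPKM. At these read numbers, the log2 ratio without a pseudocount was -0.74 for *Bsn*, with a 95% interval from -1.21 to -0.26. For *Rims1* it was -0.90, from -1.300 to -0.506. Both intervals depend on the scaling and hold 0 on the TPM scale, where they run from -0.56 to 0.38 for *Bsn* and from -0.65 to 0.14 for *Rims1*. These intervals are normal approximations on the log scale, cover counting error only and hold nothing of the variation between animals. Removal of ribosomal RNA keeps circular RNAs, so for all 10 genes reads from linear and circular forms cannot be told apart in FPKM.

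The direction of the group rests on how the libraries are scaled. All FPKM added up to 1402321 in CTRL and to 895200 in IR12. Genes of small non-coding RNAs, recognised by symbol, made up 67.8% of the sum in CTRL and 46.2% in IR12. Bringing both libraries to the same sum multiplied the FPKM of IR12 by 1.57. On this TPM scale the median log2 ratio of all 13599 genes moved from 0.02 to 0.61, and that of the 10 genes from -0.34 to 0.30. The share of all genes that were lower in IR12 moved with it, from 48.2% to 15.7%, and of the genes changed at least 1.5-fold the lower ones went from 48.1% to 9.75%. *Rims1* and *Bsn* were still lower on the TPM scale, with log2 ratios of -0.23 and -0.08, and the other 8 genes were higher, up to 0.58 for *Erc2*. With small non-coding RNAs left out of the sum, the multiplier was 0.938, the median of the 10 genes -0.43 and that of all genes -0.06. Relative to the median of all genes, the median of the 10 genes was -0.36 as deposited and -0.32 on the TPM scale. All 10 genes lay below the median of all genes as deposited. Rescaling or centring a library moves the 10 genes and that median together, so this position is nearly fixed across the scalings and is no sign of stability.

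**Figure D3:**
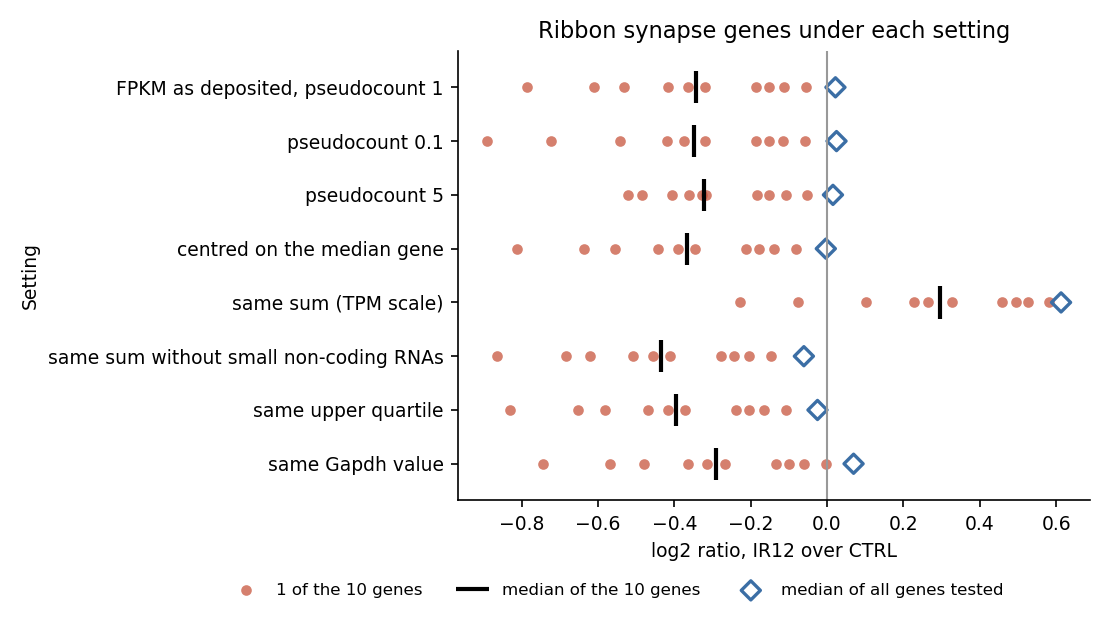
Log2 ratios, IR12 over CTRL, of the 10 ribbon synapse genes (points), their median (bars) and the median of all 13599 genes tested (open diamonds) under each scaling and pseudocount. On the TPM scale 8 of the 10 genes lie above 0, and the median of all genes moves with them, as rescaling shifts all genes nearly alike.

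Other genes of the synapse were compared with the 10 as 6 lists, whose medians are given as deposited with the TPM scale after them. Over the 74 genes found in these lists, 58 were lower in IR12 (78.4%), 14 were at least 1.5-fold lower and 2 at least 1.5-fold higher, beside 48.2%, 13.7% and 14.8% of all genes tested. On the TPM scale 13 of the 74 were lower, 1 was at least 1.5-fold lower and 18 at least 1.5-fold higher, beside 15.7%, 5.64% and 52.2% of all genes. The synaptic vesicle list had the lowest median, -0.46 (0.14 on the TPM scale), and all 13 of its genes were lower as deposited and 3 on the TPM scale, beside 10 and 2 of the 10 ribbon synapse genes. Its most abundant genes were *Sv2b*, at 362 and 271 FPKM in CTRL and IR12, and *Syp*, at 254 and 184, and besides *Slc17a8* the vesicle genes *Syn1* and *Sv2c* were at least 1.5-fold lower (-0.93 and -0.82). *Syngr1* had the highest log2 ratio of the vesicle list, -0.07. The SNARE and fusion list, whose products the complexins bind, had a median of -0.36 (0.19 on the TPM scale), close to the -0.34 of the ribbon synapse genes. Of its 15 genes 12 were lower as deposited and 2 on the TPM scale, *Vamp1* (-0.996) and *Cplx2* (-0.92) lay lowest, and *Snapin* was highest at 0.32. *Syt1* had an FPKM of 459 and 371 in CTRL and IR12, and *Snap25* 234 and 170.3, against 424 and 339.8 for *Cplx4*. The calcium channel list, which holds the partners of *Cabp4*, had a median of -0.26 (0.38 on the TPM scale) with all 8 genes lower as deposited and 3 on the TPM scale. *Cacna1d* (-0.85), *Cabp5* and *Rimbp2* (-0.59) were at least 1.5-fold lower in it, while *Calm2*, a calmodulin gene and its most abundant, had a log2 ratio of -0.29.

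The list of other active zone genes had a median of -0.18 (0.44 on the TPM scale), beside -0.34 (0.30) for the 10 ribbon synapse genes, with 11 of 16 lower as deposited and 3 of 16 on the TPM scale. *Rims3*, *Mpp4* (-0.67 each) and *Unc13b* (-0.64) were at least 1.5-fold lower, *Rims4* was highest at 0.42, and *Unc119* was the most abundant, at 492 and 507 FPKM. The postsynaptic list was drawn up for the ON bipolar cells that face these terminals, but some of its genes, *Dmd* among them, are not confined to those cells. Its values therefore do not describe the postsynaptic side alone. The list had a median of -0.25 (0.40 on the TPM scale), with 10 of 13 lower as deposited and 1 of 13 on the TPM scale. *Dmd* and *Trpm1* were its most abundant genes in CTRL, at 204 and 189 FPKM in CTRL and 172 and 159 in IR12, *Gnao1* was lowest at -0.74 and *Rgs7* highest at 0.70. The vesicle endocytosis list had a median of 0.03 (0.67 on the TPM scale), with 4 of 9 lower as deposited and 1 of 9 on the TPM scale, beside 10 of 10 and 2 of 10 ribbon synapse genes. The difference between these lists was not tested. *Bin1* had the highest log2 ratio there (0.71) and *Dnm3* the lowest (-0.82), while *Cltc* and *Snap91*, the most abundant in CTRL, had log2 ratios of 0.03 and -0.18. Of the genes named in these lists, *Cacna1d*, *Rimbp2*, *Rims4*, *Unc13b*, *Mpp4*, *Sv2b*, *Sv2c*, *Syn1*, *Syngr1*, *Dnm3*, *Trpm1*, *Gnao1* and *Dmd* share a listed locus with another gene, so their own levels are uncertain.

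**Figure D4:**
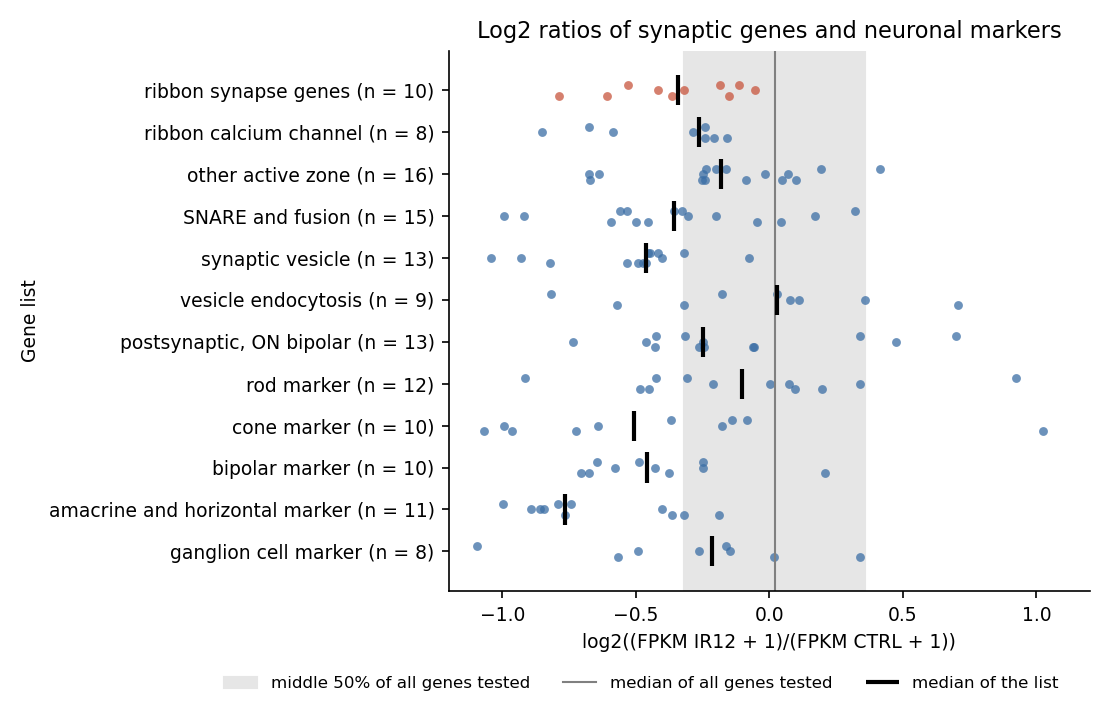
Log2((FPKM IR12 + 1)/(FPKM CTRL + 1)) of each gene (points) and the median of its list (bars), for the 10 ribbon synapse genes, 6 other synaptic lists and 5 lists of neuronal markers, 1 library per condition. The median of the 10 genes, -0.34 (0.30 on the TPM scale), lies left of the median of all genes tested (grey line), and the grey band holds the middle 50% of all genes.

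Markers of the cells that hold ribbon synapses were set beside the 10 genes. The counts of lower markers stand beside 48.2% of all genes as deposited and 15.7% on the TPM scale. Of the 12 rod markers 6 were lower as deposited and 1 on the TPM scale, and the list had a median of -0.10 (0.53 on the TPM scale) and a summed FPKM of 34400.3 in CTRL and 32994 in IR12, led by *Gngt1* at 12096 and 8644. The median of the 10 ribbon synapse genes minus that of the rod markers was -0.24 on the log2 scale. The rod markers were themselves spread from -0.92 for *Rcvrn* to 0.92 for *Sag*, wider than the 10 genes. Of the 10 cone markers 9 were lower as deposited and 5 on the TPM scale, with a median of -0.51 (0.14 on the TPM scale), a sum of 604 in CTRL and 499 in IR12, and *Gnat2*, the most abundant in CTRL, at 179 and 138. *Opn1sw* was the lowest cone marker at -1.07, *Gnb3* the highest at 1.02, and *Arr3* had 138 and 69.0 FPKM. Of the 10 bipolar markers 9 were lower as deposited and 3 on the TPM scale, and the list had a median of -0.46 (0.17 on the TPM scale) and a sum of 749.6 in CTRL and 561 in IR12, led by *Trpm1* and *Prkca* (125 and 79.7), with *Isl1* lowest at -0.70 and *Pcp2* highest at 0.21. Of the markers named, *Arr3*, *Trpm1* and *Pcp2* share a listed locus with another gene, so their levels are uncertain. None of the rod, cone and bipolar markers was listed at 0 in either library, and the part of these cells' numbers in the values of the 10 genes was not tested.

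Cells with conventional synapses also use several of the 10 genes, such as *Rims1*, *Rims2*, *Bsn*, *Pclo* and *Erc2*. As deposited, the log2 ratios of these genes were -0.79, -0.42, -0.61, -0.53 and -0.06 in that order. All 11 amacrine and horizontal cell markers were lower in IR12 as deposited and 8 of the 11 on the TPM scale, with a median of -0.77 (-0.16 on the TPM scale) and a summed FPKM of 598 in CTRL and 351 in IR12. *Calb2* led this list at 275 and 148 FPKM, before *Gad1* at 106.8 and 82.7, and log2 ratios ran from -0.998 for *Tfap2b* to -0.19 for *Lhx1*. Of the 8 ganglion cell markers 6 were lower as deposited and 2 on the TPM scale, and the list had a median of -0.21 (0.30 on the TPM scale) and a sum of 331 in CTRL and 269 in IR12, led by *Nefl* (132 and 88.8) and *Sncg* (79.7 and 80.7). *Pou4f2* was lowest there at -1.10 and *Rbpms* highest at 0.34. The part of these cells in the values of the 10 genes was not tested.

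Several markers of cells outside the neurons differed between the libraries by more than any of the 10 genes. Of 8 Müller glia markers 6 were lower in IR12 on both scales, and the list had a median of -1.74 (-1.11 on the TPM scale) and a sum of 1232 in CTRL and 470.3 in IR12, from *Aqp4* at -3.25 to *Gfap* at 2.54, led in CTRL by *Glul* (754 and 126) and *Rlbp1* (126 and 26.8). Of 10 leukocyte markers 9 were higher in IR12 on both scales. Of all genes 48.2% were lower as deposited, and 84.3% were not lower on the TPM scale. The 9 of 10 on that scale thus lie near the share of all genes. The leukocyte list had a median of 1.63 (2.14 on the TPM scale) and a sum of 21.8 in CTRL and 138 in IR12. It was led in CTRL by *Lyz2* (9.73 and 76.9) and *Aif1* (5.42 and 7.36). *S100a9* was the highest leukocyte marker at 4.32 and *Cx3cr1* the lowest at -0.36, and *S100a8* was listed at 0 in CTRL. All 8 lens markers were lower in IR12 on both scales, with a sum of 4096 in CTRL and 555 in IR12 and a median of -2.71 (-2.17 on the TPM scale). *Cryba1* (1614 and 196) and *Cryaa* (1118 and 124) led the lens list in CTRL, in which *Cryaa* was lowest at -3.16 and *Bfsp1* highest at -1.55. Of the 6 pigment epithelium markers 4 were lower as deposited and 3 on the TPM scale, and the list had a median of -0.13 (0.14 on the TPM scale) and a sum of 89.2 in CTRL and 116 in IR12, led by *Ttr* (61.8 and 87.4), with *Rgr* (13.7 and 21.6) highest at 0.62 and *Rpe65* lowest at -1.04. As a share of all FPKM the lens markers held 0.292% in CTRL and 0.0620% in IR12, beside 0.112% and 0.147% for the 10 ribbon synapse genes. The part of glia, leukocytes and lens in the values of the 10 genes was not tested.

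Among genes often used as expression references, *Gapdh* measured 716 FPKM in CTRL and 690.1 FPKM in IR12 as deposited (log2 ratio -0.05), and it was higher in IR12 on the TPM scale. Making *Gapdh* equal in both libraries multiplied the FPKM of IR12 by 1.04, so this scale lies close to the deposited one. All 10 ribbon synapse genes were lower in IR12 on it, beside 44.2% of all genes. Their median was -0.29, beside 0.07 for all genes, with *Erc2* lying at -0.004. The 10 reference genes had a median of 0.17 (0.80 on the TPM scale), from *Pgk1* at -0.46 to *Actb* at 1.04, with *Ppia* most abundant at 832 and 903 FPKM. *Hprt1*, used by nearly all cells, was listed at 0 in both libraries, so a value of 0 need not mean that no RNA was made. None of the 10 ribbon synapse genes was near such a value, the lowest being the 3.75 FPKM of *Bsn* in IR12.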

How the data were processed

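Total RNA (350 ng) of 1 retina per condition was sequenced by the authors as single-end reads after ribosomal RNA removal. The authors deposited 1 FPKM value per gene and library on rn6. Their processing notes name STAR 2.5.2b and Cuffdiff 2.2.0; the annotation behind the FPKM and the normalization between libraries are not given in the sources used here, an Ensembl annotation being named for the study's circular RNA tool. Start positions are 0-based in the table and are printed with 1 added.

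FPKM was used as deposited, with a pseudocount of 1. Genes with FPKM of at least 1 in at least 1 library formed the background, and a fold of 1.5 was read as changed. The 10 genes and the lists were chosen with earlier results of these data known. Named are the 10 genes, their paralogs, *Gapdh* and, in each list, the 2 most abundant genes in CTRL and those with the highest and lowest log2 ratio. Also named are genes changed 1.5-fold in the synaptic lists and markers listed at 0. Some genes that this rule takes are not reported here. Of the list genes, *Amph* and *Rgs11* did not match, and *Trpm1*, *Grm6*, *Cabp5*, *Slc17a6* and *Slc32a1* each stand in 2 lists. For *Cask*, with several listed entries, the one with the highest mean was used. The planned protein comparison was not run. Read steps and symbols of small RNAs were chosen after seeing the data. Procedures were tested on simulated data. Python 3.11.15, numpy 2.4.6, pandas 2.3.3 and matplotlib 3.10.9 were used.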

Additional observations from a re-analysis of the deposited data

How the results depend on the processing

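The 10 genes were recomputed with a pseudocount of 0.1 or 5, after centring on the median gene, and with IR12 scaled to the same sum (TPM scale), the same sum without small non-coding RNAs, the same upper quartile or the same *Gapdh* value as CTRL. Values were taken as moved past 1.5-fold, since no replicate spread exists. Of 102 recomputed values, 88 kept their direction and stayed within this limit, 5 moved and 9 reversed, all 9 on the TPM scale. The 102 include the share of all genes at least 1.5-fold lower, 13.7% as reported. It was 10.9% within the range of the 10 genes, 12.7% with a minimum FPKM of 5 and 10.2% with no minimum. Some of the 88 are nearly fixed by construction, such as differences from the rod markers under rescaling, so the tally is no measure of stability. The 88 include *Rims1* and *Bsn* on the TPM scale, whose log2 ratios shrank to -0.23 and -0.08, no longer past 1.5-fold. There the median of the 10 genes was 0.30, and the log2 ratios were 0.10 for *Pclo*, 0.23 for *Rims2*, 0.27 for *Cplx3*, 0.33 for *Cplx4*, 0.46 for *Cabp4*, 0.49 for *Slc17a7*, 0.53 for *Ctbp2* and 0.58 for *Erc2*. On that scale 2 of the 10 were lower and 0 at least 1.5-fold lower, beside 15.7% and 5.64% of all genes. The count of genes at least 1.5-fold lower, 2 as reported, was 0 with a pseudocount of 5 (7.27% of all genes), 0 at a fold of 2 (6.12%) and 1 with the same *Gapdh* value (12.5%), where *Bsn* was at -0.57. It was 3 with the same sum without small non-coding RNAs (16.2%), where *Pclo* was at -0.62. The median relative to the rod markers, -0.24, ran from -0.239 to -0.232 over the 7 settings, but rescaling or centring moves both lists alike, so this range is nearly fixed by construction and says nothing of stability. No paired analysis was possible because each condition has 1 library. FPKM gives no read counts, and counting error was bounded for *Bsn* and *Rims1* alone.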
